A study of Mus musculus with 12 samples.

Results

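The 9 genes described here encode selectins and the adhesion molecules that endothelium shows to passing leukocytes, or their ligands. They are *Sele*, *Selp*, *Selplg*, *Cd34*, *Icam1*, *Icam2*, *Vcam1*, *Madcam1* and *Jam2*. The genes were chosen by symbol, and each of the 9 matched a single gene among the 53801 genes of the deposited count and TPM matrices. The matrices hold RNA sequencing of hearts from adult male C57BL/6N mice. A group of 4 mice had sham surgery, and in the other groups, also of 4 mice each, a suture tied off the left coronary artery and the heart was taken 1 day (day 1 AMI) or 7 days later (day 7 AMI). The ligature was permanent. The labels name the heart and no region of it, and the study's methods state that whole hearts gave the RNA. Infarcted and spared myocardium therefore cannot be told apart. The day on which sham hearts were taken is not given in the sources used here. The labels list no genetic change and no drug for any of the 3 groups.

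Leukocytes leave the blood in steps. E-selectin (*Sele*) and P-selectin (*Selp*) on activated endothelium hold leukocytes in a rolling contact through PSGL-1 (*Selplg*) on the leukocyte. ICAM-1, ICAM-2 and VCAM-1 then bind leukocyte integrins and arrest the cell, and junction proteins such as JAM-B (*Jam2*) border the path through the endothelium. In the infarcted heart these steps precede the entry of neutrophils and, later, of monocytes.

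Of the 9 genes, 8 passed the filter on low counts and *Madcam1* did not. *Sele*, *Selp* and *Selplg* were higher at day 1 than in sham, by 4.33-fold, 5.15-fold and 2.89-fold. From day 1 to day 7 *Selp* fell and *Cd34* rose. At day 7 *Sele*, *Selplg*, *Vcam1* and *Cd34* were higher than in sham. These changes were called at a fold change of 2 and a false discovery rate of 0.05. The fall of *Selp* was not called without day 1 AMI replicate 2. *Icam2*, *Vcam1* and *Jam2* also rose from day 1 to day 7, past that rate but by less than 2-fold. *Icam2* at day 7 was 1.93-fold above sham, likewise under the fold change limit. *Icam1* was not called in any comparison, and *Jam2* was lowest at day 1.

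The sequences before the start sites of 4 genes are given because these genes followed different courses, *Sele* and *Selp* highest on day 1, *Cd34* on day 7, and *Icam1* with no call. RefSeq (GRCm38.p6) gave a promoter for 5 of the 9 genes, *Sele*, *Selp*, *Cd34*, *Icam1* and *Madcam1*. Each line is the 250 bases before the start site on the plus strand. They lie at chr1:164047984-164048233 (*Sele*), chr1:164115014-164115263 (*Selp*), chr9:21015690-21015939 (*Icam1*) and chr1:194938571-194938820 (*Cd34*). Capitals mark matches, on either strand, to a relaxed NF-kB consensus, to TGANTCA (a relaxed AP-1 motif, any base at N) or to TATAAA. No match to one of these motifs overlapped a match to another.
Sele: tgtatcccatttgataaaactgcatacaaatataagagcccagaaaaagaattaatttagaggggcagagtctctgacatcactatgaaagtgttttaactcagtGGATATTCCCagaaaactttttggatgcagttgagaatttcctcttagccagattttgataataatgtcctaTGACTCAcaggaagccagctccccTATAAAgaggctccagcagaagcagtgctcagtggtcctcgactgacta
Selp: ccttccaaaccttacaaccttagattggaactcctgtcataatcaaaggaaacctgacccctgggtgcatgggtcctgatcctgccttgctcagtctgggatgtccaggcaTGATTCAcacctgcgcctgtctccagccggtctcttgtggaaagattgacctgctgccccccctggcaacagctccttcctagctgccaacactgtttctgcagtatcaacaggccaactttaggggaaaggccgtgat
Icam1: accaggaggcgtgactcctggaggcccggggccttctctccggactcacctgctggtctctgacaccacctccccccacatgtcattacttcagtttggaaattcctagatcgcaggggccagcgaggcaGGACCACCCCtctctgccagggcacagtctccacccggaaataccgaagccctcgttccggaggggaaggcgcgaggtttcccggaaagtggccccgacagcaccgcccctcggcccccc
Cd34: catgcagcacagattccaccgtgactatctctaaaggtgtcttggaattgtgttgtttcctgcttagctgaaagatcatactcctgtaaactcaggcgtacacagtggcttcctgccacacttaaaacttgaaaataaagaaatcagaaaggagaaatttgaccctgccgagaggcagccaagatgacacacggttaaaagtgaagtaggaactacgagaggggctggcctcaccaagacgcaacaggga

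The *Sele* window held 1 match to each motif. They were GGATATTCCC (relaxed NF-kB) from 145 bases, TGACTCA from 73 bases, and TATAAA from 49 bases before the start. The *Selp* window held TGATTCA from 139 bases before the start and no match to the other motifs. The *Icam1* window held GGACCACCCC (relaxed NF-kB) from 120 bases before the start, and the *Cd34* window held no match. The *Madcam1* window, not printed, held 5 relaxed NF-kB matches, some overlapping each other, and no match to the other motifs. Among 27025 promoters of this length, 22.9% held the relaxed NF-kB consensus, 6.87% TGANTCA and 13.0% TATAAA. A match to these letters is a description of the sequence and was not tested as a binding site.

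The libraries held from 23204551 to 32166517 counts. Counts were normalized with edgeR's TMM factors, which ran from 0.781 to 0.917 in sham, from 1.01 to 1.06 at day 1 and from 1.10 to 1.17 at day 7, and are given as CPM, counts scaled to the library's effective size. A count of 3, taken as the floor of a library, was 0.0895 to 0.156 CPM, and covers counting error only. A gene was called a DEG (differentially expressed gene) where edgeR's quasi-likelihood test over 15306 genes gave a false discovery rate (FDR) below 0.05 and the fold change (FC) was at least 2. SE is the standard error of the log2 FC. Adjusted p-values below are from that test unless another is named. Without TMM, on library sizes alone, the median log2 FC of all genes moved from −0.01 to 0.26 for day 1 AMI against sham, from 0.02 to 0.15 for day 7 against day 1 AMI, and from 0.03 to 0.43 for day 7 AMI against sham. That scaling called 1764 genes higher and 217 lower at day 1 than in sham, against 1192 and 456 with TMM, and 3633 and 318 at day 7 against sham, in place of 2346 and 900. For day 7 against day 1 AMI it called 1626 and 293, against 1308 and 411. Changes here are relative to TMM scaling. Sham replicates 1 and 2 had more erythroid, platelet and neutrophil transcripts than the other sham hearts. The mean log2 CPM of 7 erythroid genes was 5.33 and 7.45 in these hearts, against 3.61 and 3.82.

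Levels between genes were compared in TPM, which allows for transcript length. In sham hearts *Cd34* (61.3 ± 8.11 TPM, SD, n = 4) and *Jam2* (56.8 ± 3.18) were the most abundant, and their ranges overlapped. Next came *Icam2* (22.3 ± 4.61), *Icam1* (8.24 ± 3.73) and *Vcam1* (6.35 ± 0.610), of which the last pair overlapped. *Selplg* stood at 3.55 ± 1.24 TPM, *Selp* at 0.745 ± 0.440 and *Sele* at 0.618 ± 0.381, and *Selp* and *Sele* overlapped. *Madcam1* was listed at 0 TPM in each sham heart. At day 1 the order was *Cd34* (78.7 ± 3.88), *Jam2* (38.2 ± 2.88) and *Icam2* (30.5 ± 2.35), each apart from the next, and then *Icam1* (13.9 ± 1.44), *Selplg* (13.2 ± 3.34) and *Vcam1* (11.6 ± 0.909), which overlapped. *Sele* (3.30 ± 1.12) and *Selp* (3.24 ± 1.87) overlapped below them. At 7 days *Cd34* stood alone at 217 ± 14.9 TPM, and *Jam2* (65.2 ± 3.96) and *Icam2* (61.1 ± 3.71) overlapped. *Vcam1* (20.3 ± 3.04), *Selplg* (18.6 ± 5.49) and *Icam1* (16.9 ± 3.91) also overlapped, above *Sele* (2.17 ± 0.158) and *Selp* (1.61 ± 0.675).

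**Figure D1:**
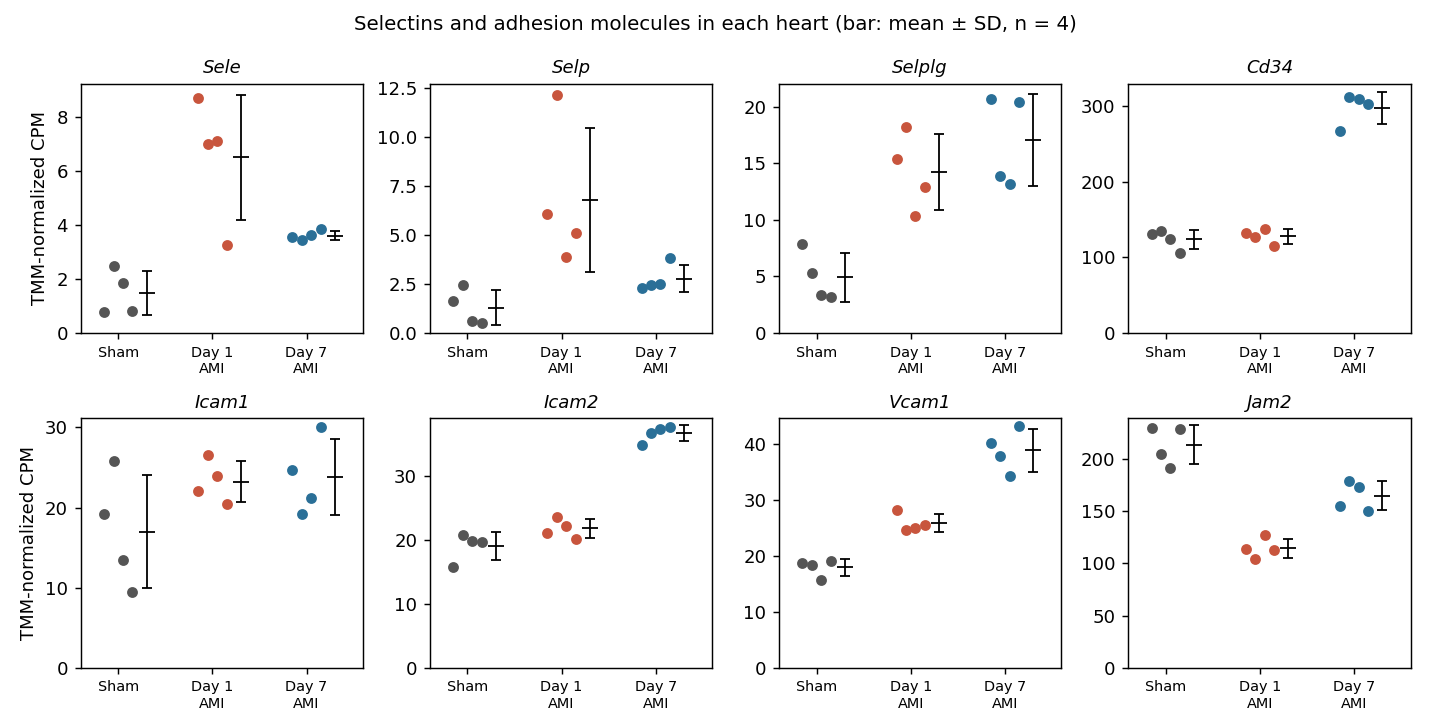
Normalized level of 8 adhesion genes (TMM-normalized CPM, linear axis from 0) in each heart of the 3 groups (sham, AMI day 1, AMI day 7). Points are hearts in order of replicate number, and the bar beside them is the mean ± SD (n = 4). *Sele* and *Selp* were highest at day 1, *Cd34*, *Icam2* and *Vcam1* at day 7, and *Jam2* was lowest at day 1.

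*Sele* (ENSMUSG00000026582, GRCm38 chromosome 1, 164048234 to 164057677, plus strand) encodes E-selectin, which endothelial cells make on activation by inflammatory cytokines. Its levels were 0.782, 2.46, 1.84 and 0.813 CPM in sham hearts, 8.72, 6.98, 7.10 and 3.25 at day 1, and 3.54, 3.44, 3.62 and 3.84 at day 7 (replicates 1 to 4). All hearts of both AMI groups lay above all sham hearts, and day 1 AMI replicate 4 lay below each day 7 AMI heart. The log2 FC was 2.11 at day 1 against sham (SE 0.345, adjusted p = 0.000348). At 7 days it was 1.27 against sham (SE 0.349, adjusted p = 0.00615). From day 1 to day 7 it was −0.85 (SE 0.314, adjusted p = 0.0389), which passed the FDR and not the FC of 2. Without day 1 AMI replicate 4, the lowest of its group, this step was −1.07 and was called (adjusted p = 0.00715). Over the hearts left out in turn its adjusted p ran from 0.00715 to 0.119.

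*Selp* (ENSMUSG00000026580, chromosome 1, 164115264 to 164150026, plus strand) encodes P-selectin, which endothelial cells and platelets store in granules and move to the surface on stimulation. *Selp* levels were 1.62, 2.42, 0.631 and 0.526 CPM in sham hearts, 6.04, 12.1, 3.89 and 5.08 at day 1, and 2.31, 2.43, 2.51 and 3.81 at day 7. Day 1 AMI hearts lay above all hearts of the other groups, replicate 2 highest, and day 7 AMI hearts overlapped sham hearts. The log2 FC was 2.36 at day 1 against sham (SE 0.439, adjusted p = 0.00083) and −1.29 from day 1 to day 7 (SE 0.401, adjusted p = 0.0162). Without day 1 AMI replicate 2 the fall was −0.86 and was no longer called (adjusted p = 0.0739). It was not called with limma on log2(TPM + 1) (−0.64, adjusted p = 0.0736) or on log2(TPM + 0.1) (−0.89, adjusted p = 0.14). At day 7 against sham the log2 FC was 1.07 (SE 0.449, adjusted p = 0.053), just outside the FDR, and without sham replicate 2 it was 1.59 and was called (adjusted p = 0.00995). Antisense or long noncoding genes on the opposite strand overlap up to 9.93% of the exon bases of *Selp*, and the strand counted is not given in the sources used here.

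In sham replicate 3 the TPM and the count of *Selp* parted. There 1 CPM of *Selp* corresponded to 1.57 TPM, against 0.340, 0.499 and 0.437 in the other sham hearts and 0.442 to 0.688 in the AMI hearts. This heart had 13 counts of *Selp*. The cause was not tested.

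Platelet transcripts and *Selp* were compared side by side because platelets also carry P-selectin. Of 10 platelet genes, none was at 0 in every library, and 4, *Gp5*, *Gp6* and *Treml1* among them, did not pass the filter. At day 1 against sham *Pf4*, the platelet chemokine that macrophages can also make, was called higher, with a log2 FC of 1.22, and *Gp1ba*, *Gp1bb* and *Gp9*, subunits of the platelet receptor for von Willebrand factor, were called lower. The summed level of the 10 genes was 16.0 to 41.6 CPM in sham, 30.5 to 42.9 at day 1 and 17.7 to 27.0 at day 7. The mean log2 CPM of the 6 tested genes was 1.35 ± 0.82 in sham (SD, n = 4). It was 0.90 ± 0.27 at day 1 and 0.97 ± 0.49 at day 7. Within the sham group the mean log2 CPM of the 6 tested platelet genes was 1.63, 2.36, 0.90 and 0.50 in replicates 1 to 4, the same order as *Selp*. The part of platelet transcripts in the *Selp* values was not tested.

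*Selplg* (ENSMUSG00000048163, chromosome 5, 113818536 to 113832644, minus strand) encodes PSGL-1, the main leukocyte ligand of P-selectin. Its levels were 7.82, 5.34, 3.395 and 3.16 CPM in sham hearts, 15.3, 18.2, 10.4 and 12.9 at day 1, and 20.7, 13.9, 13.2 and 20.4 at day 7. Hearts of both AMI groups lay above all sham hearts and overlapped each other. Day 1 AMI exceeded sham by a log2 FC of 1.53 (SE 0.269, adjusted p = 0.000575) and day 7 AMI by 1.79 (SE 0.269, adjusted p = 5.60e-05). Between the AMI groups it was 0.27 (SE 0.249, adjusted p = 0.401).

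*Cd34* (ENSMUSG00000016494, chromosome 1, 194938819 to 194961279, plus strand) encodes a sialomucin of capillary endothelium, blood progenitors and some stromal cells that can carry selectin ligands. Its levels were 131, 135, 124 and 106 CPM in sham hearts, 132, 127, 137 and 115 at day 1, and 267, 312, 309 and 303 at day 7. Sham and day 1 AMI hearts overlapped, and each day 7 AMI heart lay above all of them. The log2 FC was 0.04 at day 1 against sham (SE 0.0914, adjusted p = 0.737). It was 1.22 from day 1 to day 7 (SE 0.0923, adjusted p = 3.97e-07) and 1.27 at day 7 against sham (SE 0.0926, adjusted p = 1.16e-07). On the opposite strand another gene covers 2.03% of its exon sequence.

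*Vcam1* (ENSMUSG00000027962, chromosome 3, 116109949 to 116129688, minus strand) encodes VCAM-1, the endothelial ligand of integrin α4β1. Its levels were 18.6, 18.4, 15.7 and 19.0 CPM in sham hearts, 28.2, 24.5, 25.0 and 25.5 at day 1, and 40.2, 37.7, 34.2 and 43.1 at day 7. The 3 groups did not overlap. Day 1 AMI exceeded sham by a log2 FC of 0.53 (SE 0.0930, adjusted p = 0.000601), and the step from day 1 to day 7 was 0.59 (SE 0.0909, adjusted p = 0.000143), each past the FDR and under a FC of 2. Over both steps it was 1.12 (SE 0.0931, adjusted p = 3.43e-07), which was called.

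*Icam1* (ENSMUSG00000037405, chromosome 9, 21015985 to 21028817, plus strand) encodes ICAM-1, the inducible ligand of the β2 integrins. Its levels were 19.2, 25.8, 13.4 and 9.52 CPM in sham hearts, 22.0, 26.5, 23.98 and 20.5 at day 1, and 24.7, 19.2, 21.3 and 30.1 at day 7. Sham hearts spread over the widest range, and sham replicate 2 reached into the range of both AMI groups. The log2 FC was 0.45 at day 1 against sham (SE 0.234, adjusted p = 0.138), 0.03 from day 1 to day 7 (SE 0.229, adjusted p = 0.913) and 0.48 at day 7 against sham (SE 0.234, adjusted p = 0.0889). Without sham replicate 2 the changes against sham were 0.73 (adjusted p = 0.0128) and 0.76 (adjusted p = 0.00632), past the FDR and still under a FC of 2. With limma on log2(TPM + 1) the day 7 change was 1.01 and was called (adjusted p = 0.00212). On the opposite strand another gene covers 11.7% of its exon sequence.

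*Icam2* (ENSMUSG00000001029, chromosome 11, 106377656 to 106388075, minus strand) encodes ICAM-2, which resting endothelium carries constitutively. Its levels were 15.8, 20.7, 19.8 and 19.7 CPM in sham hearts, 21.1, 23.6, 22.2 and 20.2 at day 1, and 34.9, 36.7, 37.3 and 37.6 at day 7. Day 1 AMI overlapped sham, and day 7 AMI lay above both. Against sham, the day 1 log2 FC was 0.20 (SE 0.0910, adjusted p = 0.0973). The step from day 1 to day 7 was 0.75 (SE 0.0895, adjusted p = 1.80e-05), and day 7 AMI exceeded sham by 0.95 (SE 0.0909, adjusted p = 1.11e-06). The last change, 1.93-fold, was under a FC of 2 and passed it on library sizes alone (1.34) and on the log2(TPM + 1) scale (1.44).

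*Jam2* (ENSMUSG00000053062, chromosome 16, 84774123 to 84825928, plus strand) encodes JAM-B, an immunoglobulin-type protein of endothelial junctions. Its levels were 229, 205, 191 and 229 CPM in sham hearts, 113, 104, 127 and 113 at day 1, and 155, 179, 173 and 150 at day 7. The 3 groups did not overlap, with sham highest and day 1 AMI lowest. The log2 FC was −0.90 at day 1 against sham (SE 0.0912, adjusted p = 1.71e-05), a level 0.535 times that of sham and under a FC of 2. It was 0.53 from day 1 to day 7 (SE 0.0907, adjusted p = 0.000335) and −0.38 at day 7 against sham (SE 0.0905, adjusted p = 0.0025). The direction of the day 7 change depended on the scaling, at 0.03 on library sizes alone (adjusted p = 0.789) and 0.20 on the log2(TPM + 1) scale (adjusted p = 0.0545). The day 1 decrease kept its direction in all alternatives, from −0.91 to −0.56 with the 12 hearts kept.

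*Madcam1* (ENSMUSG00000020310, chromosome 10, 79664559 to 79668537, plus strand) encodes MAdCAM-1, the addressin of mucosal venules that binds integrin α4β7. It had 0 counts in each sham heart, at most 1 at day 1, and 3, 3, 1 and 3 at day 7. No library exceeded the floor of 3 counts, so no FC is given. The day 7 and sham hearts did not overlap, and *Madcam1* was called at day 7 against sham in the fit with no filter on low counts.

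**Figure D2:**
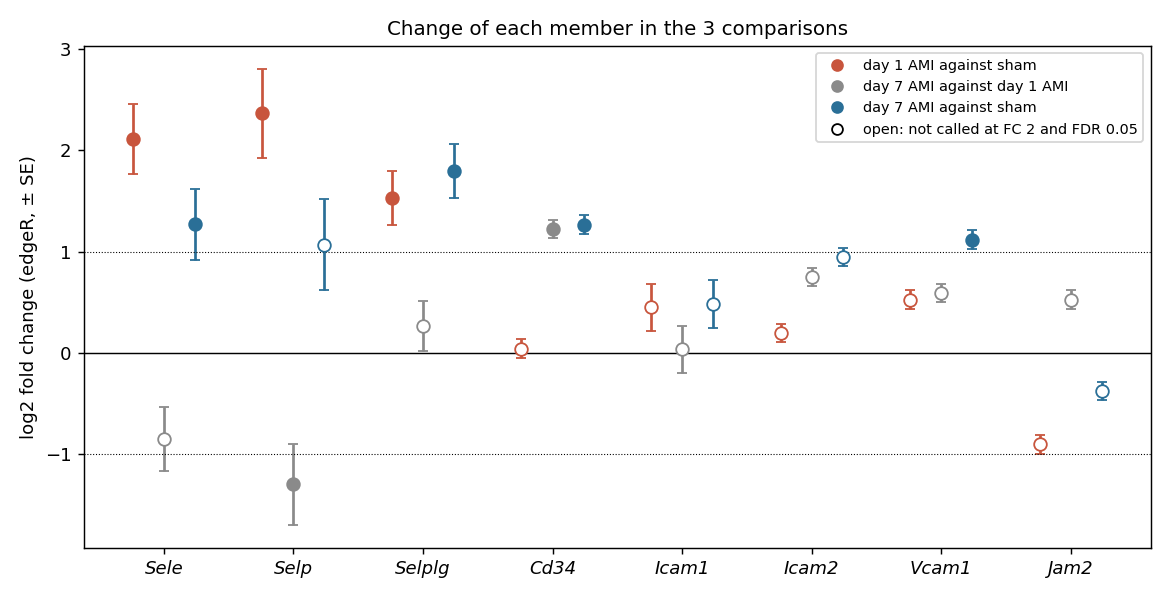
Log2 FC (vertical axis, edgeR, ± standard error) of 8 adhesion genes in 3 comparisons. Filled points were called at a FC of 2 (dotted lines) and an FDR of 0.05, and open points were not. *Selp* (2.36) and *Sele* (2.11) had the largest day 1 changes, and *Jam2* lay below 0 against sham at both times under this scaling.

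Set against all genes, 3 of the 8 tested genes were DEGs higher at day 1 than in sham, where 7.79% of all genes were, and none was lower, where 2.98% of all genes were. At an FDR below 0.05 and any FC, 4 were higher and 1 was lower, against 22% and 19.9% of all genes. From day 1 to day 7 *Cd34* was a DEG that rose, against 8.55% of all genes, and *Selp* a DEG that fell, against 2.69%. At any FC, 4 rose and 2 fell, against 24.2% and 22.8%. At day 7 against sham 4 of 8 were higher, against 15.3% of all genes, and none was lower, against 5.88%. At any FC, 5 were higher and 1 lower, against 30.9% and 28.4%. The median log2 FC of the 8 genes was 0.49, 0.40 and 1.09 in the 3 comparisons, beside −0.01, 0.02 and 0.03 for all genes. Hearts of the groups compared did not overlap for *Sele*, *Selp*, *Selplg*, *Vcam1* (higher) and *Jam2* (lower) at day 1 against sham, against 19.6% (higher) and 17.1% (lower) of all genes. From day 1 to day 7 this held for *Icam2*, *Vcam1*, *Jam2* and *Cd34* (higher) and *Selp* (lower), against 23.5% and 20.9%. For day 7 AMI and sham it held for *Sele*, *Selplg*, *Icam2*, *Vcam1* and *Cd34* (higher) and *Jam2* (lower), against 28.3% and 24.7%. The comparisons share hearts and are not independent of each other.

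In bulk heart RNA, fewer cells of a type and less RNA per cell cannot be told apart. The level of each gene was also set against endothelial or leukocyte transcripts of the same heart, as the log2 CPM of the gene minus the mean log2 CPM of 12 endothelial genes (*Pecam1*, *Cdh5*, *Kdr* and others), or of 10 leukocyte genes for *Selplg*. All 12 endothelial genes passed the filter. None was a DEG at day 1 or day 7 AMI against sham, and *Cdh5*, VE-cadherin, was a DEG that rose from day 1 to day 7 (log2 FC 1.01, adjusted p = 5.67e-06). At any FC, 3 were lower and none higher at day 1, and 9 were higher and 1 lower at day 7 than in sham. The list's summed level was 1180 to 1366 CPM in sham, 1060 to 1136 at day 1 and 1502 to 1683 at day 7. The 24 differences were each compared, 4 hearts with 4, in a two-sided exact permutation test without adjustment, and the smallest p such a test can give is 0.0286.

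Relative to endothelial transcripts, *Sele* was higher by 2.29 and *Selp* by 2.57 on the log2 scale at day 1 than in sham, with no overlap of hearts (exact permutation p = 0.0286 each). Both then fell, by 1.24 and 1.66 (exact p = 0.0286 each). At day 7 *Sele* was still higher than in sham by 1.05 (exact p = 0.0286), and by 0.09 on log2(TPM + 1) (exact p = 0.543). The day 7 difference of *Selp* from sham was 0.91 (exact p = 0.229), and on log2(TPM + 1) it was −0.32 (exact p = 0.229). In sham the mean levels of *Sele* (0.618 TPM) and *Selp* (0.745 TPM) were below the 1 that this scale adds. *Icam1* relative to endothelial transcripts was not separated from sham at day 1 (0.68, exact p = 0.0857) and then fell by 0.47 (exact p = 0.0286). Against the median endothelial gene in place of the mean this step was −0.29 (exact p = 0.143). *Vcam1* was higher by 0.66 at day 1 (exact p = 0.0286), and its further step to day 7 was 0.10 (exact p = 0.4). Whole-heart RNA also counts *Vcam1* and *Icam1* transcripts of other cells, so these differences are not levels per endothelial cell. *Icam2* was higher by 0.34 at day 1 and by 0.60 at day 7 than in sham (exact p = 0.0286 each). *Jam2* fell by 0.77 at day 1 and was −0.73 at day 7 against sham (exact p = 0.0286 each), with a step of 0.04 between them (exact p = 0.743). *Cd34* differed from sham by 0.18 at day 1 (exact p = 0.2) and was higher by 0.91 at day 7 than in sham (exact p = 0.0286).

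**Figure D3:**
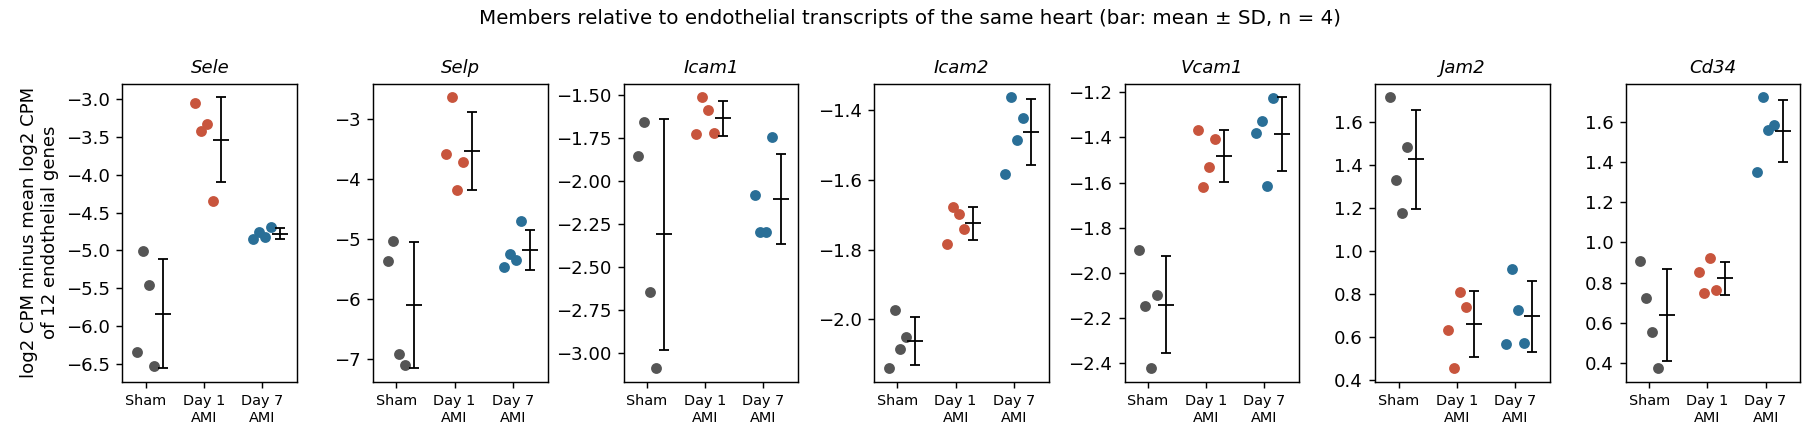
Log2 CPM of 7 adhesion genes minus the mean log2 CPM of 12 endothelial genes (vertical axes, log2 units, each panel on its own scale) in each heart, with the mean ± SD (n = 4) beside the points. *Sele* and *Selp* stood highest at day 1, *Cd34* at day 7, and *Jam2* lay lower in both AMI groups than in sham, by differences of −0.77 and −0.73.

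Of 10 general leukocyte genes, 9 were DEGs higher at day 1 and 10 at day 7 than in sham. Their summed level was 91.4 to 146.7 CPM in sham, 300.1 to 426.4 at day 1 and 300.9 to 481.8 at day 7. *Selplg* relative to these genes was −0.08 at day 1 against sham (exact permutation p = 0.971) and 0.09 at day 7 against sham (exact p = 0.714). From day 1 to day 7 it was higher by 0.17 (exact p = 0.0286), and by 0.16 against the median leukocyte gene (exact p = 0.143).

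Transcripts of other cell types also differed between the groups, though some counts were near the share of all genes. Of all genes, 7.79% were higher and 2.98% lower at day 1 than in sham, and 15.3% and 5.88% at day 7. From day 1 to day 7 the shares were 8.55% and 2.69%. At an FDR below 0.05 and any FC, 19.9% were lower at day 1. The day 1 counts of mural and of T and NK cell genes were near these shares. Of 12 neutrophil genes 10 were tested, 6 of them higher at day 1 than in sham and 6 lower at day 7 than at day 1. *Trem3* and *Stfa2l1* did not pass the filter. The neutrophil genes summed to 22.4 to 40.5 CPM in sham, 64.2 to 158.8 at day 1 and 38.8 to 55.3 at day 7. The heart with most of them, day 1 AMI replicate 2, also had the highest *Selp* and *Selplg* of its group. Of 14 monocyte and macrophage genes, 6 were higher at day 1 and 10 at day 7 than in sham. Of 7 T and NK cell genes tested, 1 and 6 were higher. Of 11 fibroblast genes, 4 were higher at day 1 and 7 at day 7 than in sham, and 9 were higher at day 7 than at day 1. Their summed level was 1303 to 1638 CPM in sham and 8858 to 17211 at day 7, the group with the highest *Cd34*. The fibroblast genes changed unevenly from sham to day 7, from a log2 FC of 0.36 (*Dcn*) to 5.99 (*Postn*), so their sum is not a measure of fibroblast number. Within the day 7 group replicate 1 had the highest fibroblast sum and the lowest *Cd34* (267 CPM), which is 1 heart. Of 11 cardiomyocyte genes none was a DEG at day 1 against sham, 10 were lower there at an FDR below 0.05 and any FC, and 9 were lower at day 7 than in sham. Of 10 mural cell genes, 1 was higher at day 1, and 4 were higher and 1 lower at day 7 than in sham. Of 9 epicardial genes, 4 were higher and 2 lower at day 1, and 4 were higher at day 7. Of 7 erythroid genes tested, 4 were lower at day 1 (*Hba-a1*, *Hba-a2*, *Slc4a1* and *Alas2*) and 4 at day 7 (*Hba-a1*, *Hba-a2*, *Slc4a1* and *Hbb-bt*) than in sham. The part of these cell types in the values of the adhesion genes was not tested.

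The other genes of the adhesion cascade were taken from lists written by hand. Their counts stand beside shares of all genes of 7.79% higher and 2.98% lower at day 1 against sham. The shares were 15.3% and 5.88% at day 7 against sham, and 8.55% and 2.69% from day 1 to day 7. Lists with a single gene called in a direction were not read as set apart from these shares. Among 8 tested partners of selectins, 3 were higher at day 1 than in sham and none lower. *Cd24a*, a mucin-like ligand of P-selectin, rose by 1.78 on the log2 scale at day 1 (adjusted p = 0.00724) and then fell by 1.47 (adjusted p = 0.015). *Cd44*, a hyaluronan receptor that can bind E-selectin, rose by 2.28 on the log2 scale at day 1 and was 1.89 above sham at day 7. *Spn* (CD43) rose by 1.54 from day 1 to day 7 (adjusted p = 0.000457). *Glycam1*, a mucin ligand of selectins, had 0 counts in every library.

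Of the enzymes that build selectin ligands, 11 of 13 were tested. *Gcnt1*, which starts the core 2 branch of O-glycans, was higher at day 1 by 1.70 (adjusted p = 1.87e-05), and the sulfotransferase *Chst4* was lower by a log2 FC of −1.36 (adjusted p = 0.0201). At day 7 *Gcnt1*, the fucosyltransferase *Fut4* and the sulfotransferase *Chst2* were higher than in sham, by 1.40, 1.52 and 1.52, and *Chst4* and *St3gal3* were lower. No gene of this list was a DEG between day 7 and day 1 AMI, where 3 were higher and 1 lower at an FDR below 0.05. *Fut7*, the leukocyte fucosyltransferase, did not pass the filter.

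Integrins of leukocytes include the receptors of the ICAM and VCAM proteins. The list used here is wider than these receptors and also holds *Itgae*, which was called higher at both times. Of 9 tested, 7 were DEGs higher than sham at day 1 and 7 at day 7. *Itgax* rose by 3.28, *Itgam* (αM of Mac-1) by 2.602, *Itgb7* by 2.31 and *Itgb2*, the shared β2 chain, by 2.16 at day 1. At 7 days *Itgax* (3.45), *Itgb7* (2.34), *Itgb2* (1.93) and *Itgam* (1.53) were all still above sham. *Itgam* was the DEG of this list from day 1 to day 7, at −1.07 (adjusted p = 0.00925). *Icam1* and *Icam2*, the endothelial ligands of β2 integrins, had log2 FCs of 0.45 and 0.20 in the same day 1 comparison.

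Of 13 junction and transmigration genes, all tested, 3 were higher at day 1, *Jaml* (a junction protein of leukocytes) by 2.22, *Alcam* by 1.75 and *Mcam* by 1.12, and none was lower. At 7 days *Jaml*, *Alcam*, *Mcam* and *Plvap* (a protein of endothelial fenestrae) were higher than in sham. The relatives of *Jam2*, like *Jam2* itself, were not DEGs in any comparison. Day 1 log2 FCs against sham were 0.03 for *F11r* (JAM-A, adjusted p = 0.747) and −0.14 for *Jam3* (JAM-C, adjusted p = 0.463). From day 1 to day 7 *Jam3* rose by 0.50 (adjusted p = 0.00919), beside 0.53 for *Jam2*, and *F11r* by 0.07 (adjusted p = 0.488). Of 10 other endothelial capture genes tested, *Msn* (moesin) was higher by 1.68 and the scavenger receptor *Stab2* lower at −1.76 at day 1. The name of this list does not limit its genes to endothelium, and the cells behind their values were not tested. *Aoc3*, vascular adhesion protein 1, rose by 1.40 from day 1 to day 7 (adjusted p = 6.64e-06). It was also higher than sham at 7 days (1.57), as were *Cd9* (1.12) and *Msn* (1.07), and *Stab2* was lower (−1.62). The atypical chemokine receptor *Ackr1* had a log2 FC of 1.31 at day 1 (adjusted p = 0.0717). *Icam4* and *Icam5* did not pass the filter.

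**Figure D4:**
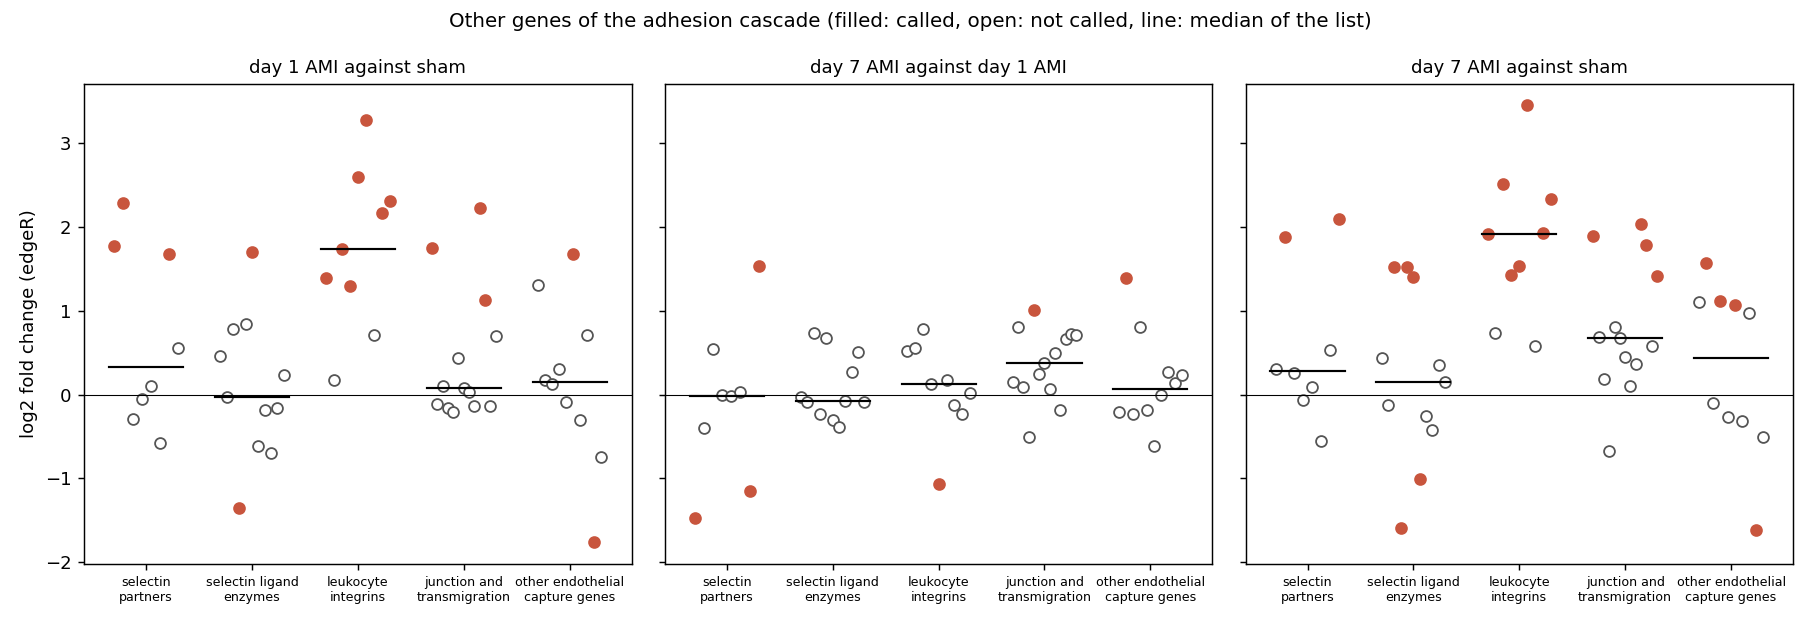
Log2 FC (vertical axis, edgeR) of the tested genes of 5 lists of the adhesion cascade in 3 comparisons. Points are genes, filled where called at a FC of 2 and an FDR of 0.05, and the line is the median of the list, 1.74 for leukocyte integrins and 0.07 for junction and transmigration genes at day 1 against sham.

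The genes whose course over the 12 hearts was most like that of each called member were found by the root mean square difference of log2 CPM after centring each gene on its mean. For *Sele* they were *Ubash3b* (0.36) and *Tubb2a* (0.38), and for *Selp* they were *Bst1* (0.27) and *Krt80* (0.32). For *Selplg* they were *Fcer1g* and *Tifab* (0.17 each). For *Vcam1* they were *Wipf1* (0.11) and *Mcm7* (0.12), and for *Cd34* *Chn2* (0.12) and *Nav1* (0.13). *Sele* and *Selp* themselves varied over the hearts with an SD of 1.07 and 1.23.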

How the data were processed

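RNA of 12 mouse hearts, 4 from each of the 3 groups, was analysed by group and replicate number as labelled. The authors trimmed reads with Cutadapt and aligned them to GRCm38 with STAR 2.4.0j, and RSEM gave their TPM. For 53801 genes the authors deposited TPM and raw counts, which are not normalized. The counting tool, its strand setting and its handling of shared reads are not given in the sources used here. The study calls the replicates biological.

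Counts were tested with edgeR 4.0.16 in R 4.3.3 (TMM, filterByExpr by group, quasi-likelihood F test, 1 fit of 3 groups), with Benjamini-Hochberg adjustment over 15306 genes. Standard errors are those implied by the F statistic. Log2 CPM used a prior count of 2. Single values were compared with exact permutation tests (scipy 1.17.1). Symbols were matched to gene identifiers through GENCODE M21. Libraries of a group differed beyond counting noise (chi-square/df of 9.45 or more), so none was the same library sequenced again. That measure cannot exclude separate libraries made from the same heart. The code was tested on simulated data.

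The members and lists were chosen with earlier results of these data known. The text names the 9 members, up to 4 called genes per cascade list and comparison with the largest change, and for each called member the 2 genes nearest in profile. A gene that the rule also names is not reported here. Marker genes, uncalled relatives and genes under the filter were named after their values were seen. The alternatives were RLE size factors, library sizes alone, no filter, DESeq2 1.42.0, limma 3.58.1 on log2(TPM + 1) and log2(TPM + 0.1), fits of only the groups compared, a replicate block, no FC minimum, and each heart left out.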

Additional observations from a re-analysis of the deposited data

Results flagged for a closer look

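Of the 24 sets of 4 hearts (8 genes in 3 groups), 1 held a heart far from the others, where chance gives about 1 in 20. It was *Selp* in day 7 AMI, where replicate 4 had 3.81 CPM against a group median of 2.47, and its gap to the next heart on the log2 CPM scale was 0.837 of the group's range (critical value 0.829). The same heart had the highest platelet (1.68), neutrophil (0.97) and erythroid (4.96) mean log2 CPM of its group. It was also highest for the general leukocyte (5.10) and the T and NK cell genes (0.50). Replicate 1 was highest for the monocyte and macrophage, fibroblast and mural genes.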

How the results depend on the processing

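The genes called in day 1 AMI against sham (*Sele*, *Selp* and *Selplg*) were called in every fit with a FC minimum, 3 in each, and 5 genes passed with no FC minimum. From day 1 to day 7, 2 genes were called (*Selp* and *Cd34*), 1 with limma on log2(TPM + 1) (*Cd34*), 2 on log2(TPM + 0.1) (*Icam2*, at 1.00, and *Cd34*), from 1 to 3 with each heart left out, and 6 with no FC minimum. In day 7 AMI against sham, 4 were called, 7 with limma on log2(TPM + 0.1), and from 4 to 5 with each heart left out. Directions turned for *Jam2* in day 7 AMI against sham (0.026 on library sizes alone, 0.20 on both TPM scales), for *Cd34* in day 1 AMI (−0.027 without sham replicate 4, up to 0.0904 with other hearts left out), and for *Icam1* from day 1 to day 7 (−0.02 and −0.10 without day 1 or day 7 AMI replicate 4, up to 0.12 with other hearts left out). They also turned for *Selp* relative to endothelial genes in day 7 AMI against sham on log2(TPM + 1) (−0.32), and for *Selplg* relative to the median leukocyte gene in day 1 AMI (0.10). Of these, *Jam2* had passed the FDR, under a FC of 2, and the others had not passed their test. The cause was not tested.

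With a replicate block, 3, 2 and 5 genes were called in the 3 comparisons, the added gene being *Selp* in day 7 AMI against sham (1.25, adjusted p = 0.0152 in edgeR). Samples of a number had correlations of their deviations from −0.24 to 0.23 over 12 pairs, 4 of them above 0.1. Pairs of different numbers ran from −0.27 to 0.25. With 4 hearts in a group these values cannot exclude a pairing or a shared batch, and the main fit used no block. *Selp* in day 7 AMI against sham was called in 6 of 8 other fits (adjusted p from 0.0121 to 0.0718 over the 8). With no filter *Madcam1* was called too, at 3 counts or fewer a heart. Genes of few counts, such as *Madcam1*, are limited by depth.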
